A study of Homo sapiens with 15 samples.

Results

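Of 15 RNA-seq libraries of RPE1-hTERT cells with doxycycline-inducible cyclin E1, 12 were arranged as late against early culture, with doxycycline present in equal numbers of libraries on each side. The late side held 6 libraries, 3 of adapted cells on doxycycline and 3 of recovery cells off it. The early side held 6 libraries, 3 of acute cells on doxycycline and 3 of control cells off it. The 3 libraries of proliferative crisis were outside the comparison and are given only as values. RPE1-hTERT is an established human line of retinal pigment epithelial origin, immortalized with telomerase, and all 5 groups carried the pINDUCER20 vector with a CCNE1 cDNA. Control cells received no doxycycline, and induced cells received 20 ng/ml. Acute cells are labelled with 2 d of doxycycline, crisis cells with 15, 18 and 18 d, and adapted cells with 39, 41 and 51 d. For recovery cells the labels give 31, 42 and 46 d of induction, then 18, 46 and 17 d of washout. By the study's methods the inducible lines were grown from single cells, so each is 1 clone, the replicates are separately adapted populations, and the RNA libraries were prepared together. The libraries used here hold no late culture that had never been induced. Time in culture and past cyclin E1 induction therefore cannot be told apart in any late value below.

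Cyclin E1 activates CDK2 and drives cells from G1 into S phase, and its overproduction is known to cause replication stress. A comparison balanced for doxycycline asks which mRNAs set late cells apart whether the transgene was on or off. The level of CCNE1 was not balanced, at 136 to 163 TPM in acute and 42.6 to 43.3 TPM in adapted libraries. In the libraries on doxycycline, time and CCNE1 level therefore cannot be told apart. Values are TPM, a length-scaled share of all transcripts, as the authors deposited them. The read depth of each library is unknown, since TPM does not carry it. The 10197 genes that averaged 5 TPM or more across the 12 libraries were fitted with limma on log2(TPM + 1) with time and doxycycline as 2 factors and their interaction. The time effect is the mean of the adapted-minus-acute and the recovery-minus-control differences, and it understates the change of genes near 0 TPM. Calls were made where the p adjusted by Benjamini and Hochberg lay under 0.01. Of 14 markers of retinal pigment epithelium, 2 reached 5 TPM, the transcription factors OTX2 and MITF, and another 2 were at 0 in all 12 libraries. Summed over the 14, the markers ran from 33.9 to 42.0 TPM in early and from 32.9 to 47.2 TPM in late libraries. Epithelial markers, of which 5 of 9 reached 5 TPM, summed to 861 to 1078 TPM in early and 858 to 1173 TPM in late libraries. Mesenchymal markers summed to 4869 to 5596 TPM in early and 4522 to 5195 TPM in late libraries. Markers of endothelium, blood and neurons summed to 65.4 to 88.8 and 65.4 to 84.6 TPM, of which CD68 supplied most. In bulk RNA, fewer cells of a type and less RNA per cell cannot be told apart.

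Few genes passed the adjusted threshold for time. Before adjustment, limma gave a p under 0.05 for 1342 genes higher late and 1170 lower late, of 10197. At an adjusted p under 0.01, 13 of 10197 genes (0.127%) were called by limma, 7 higher late (0.0686%) and 6 lower (0.0588%). The 7 that rose were ANKRD1, GPNMB, DDIT3, TRIML2, SLAMF7, VPS41 and the long noncoding RNA AC008440.2. The 6 that fell were CCL2, GRIK5, ZNF544, PPCS, CDKN1A and CCNE1. Lowering the expression filter to a mean of 1 TPM called 6 of 13935 genes (0.0431%), among them 3 that lie below 5 TPM: CRYAB, CACNG7 and APBB1IP, all lower late. The time effect is the mean of the differences with and without doxycycline, so a large time effect favours the same sign in both. All 16 genes had the same sign in both, as had 65.5% of all tested genes (57.9% after a correction for GC content). In 13 of the 16, the 6 late and the 6 early libraries did not overlap. Among all tested genes, 63 (0.618%) were higher late without overlap and 105 (1.03%) were lower late without overlap. At an adjusted p under 0.05 the count was 142 (1.39%), with 48 higher (0.471%) and 94 lower (0.922%).

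**Figure D1:**
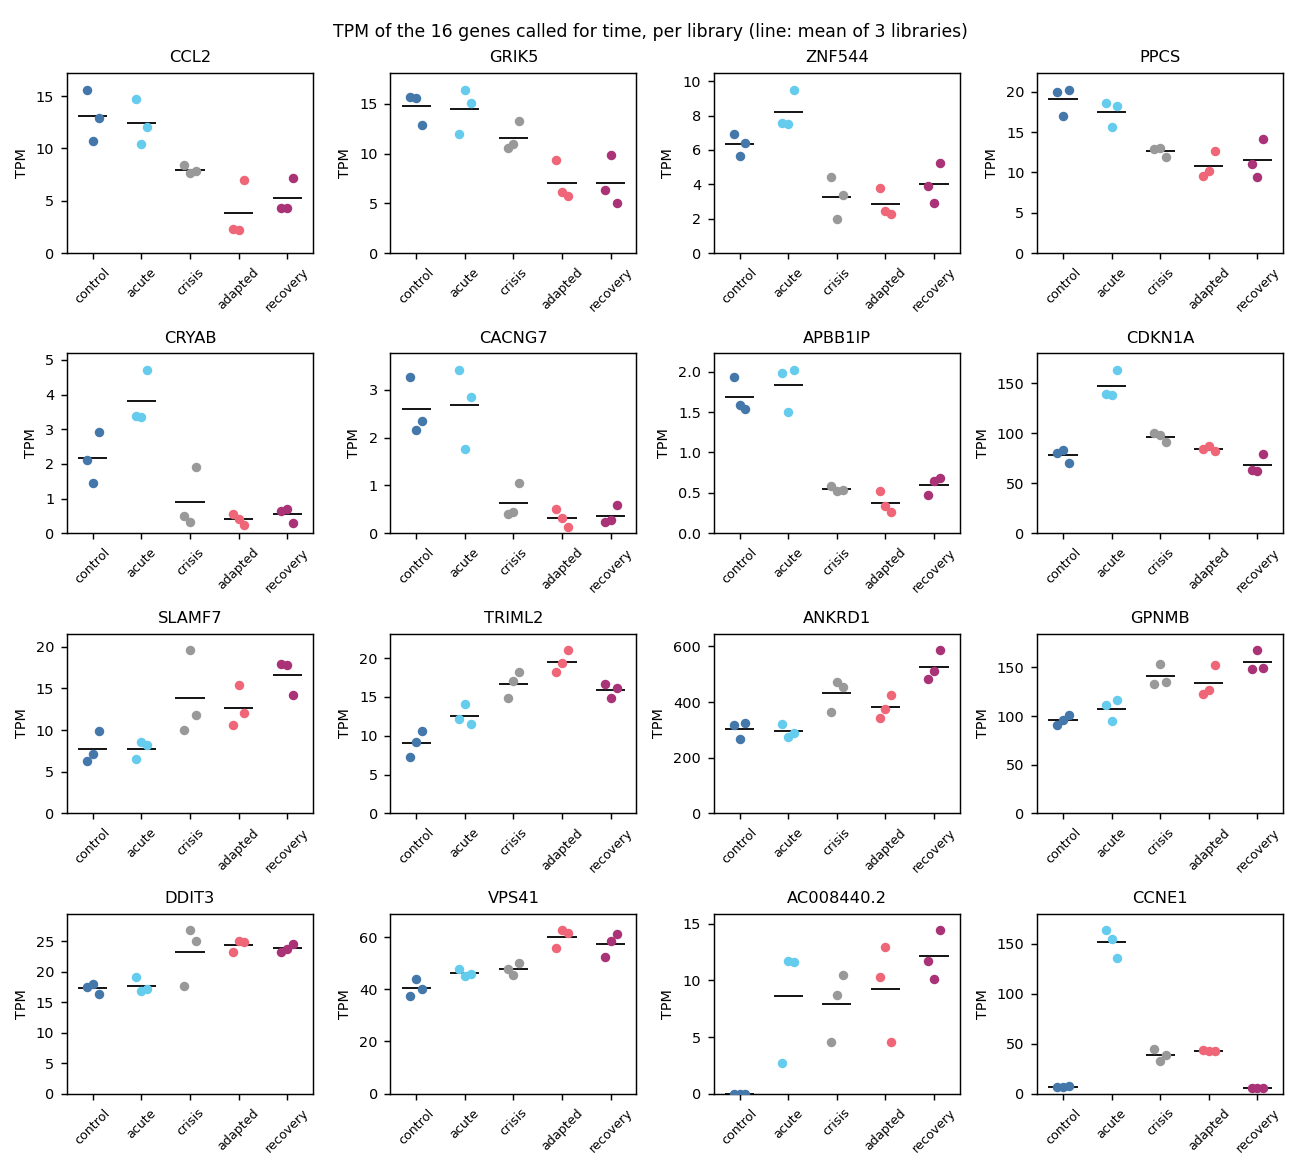
TPM per library of the 16 genes called for time, with control and acute cells as the early side, adapted and recovery cells as the late side, and crisis cells between them. Points are libraries, lines are the means of 3, and each vertical axis starts at 0. CCL2 lies between 10.4 and 15.6 TPM in the 6 early libraries and between 2.25 and 7.16 TPM in the 6 late ones, and in CDKN1A, AC008440.2 and CCNE1 the sides overlap.

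The doxycycline term was called for 5 genes (0.049%), all higher on doxycycline, CCNE1 among them. All groups carried the inducible vector, so effects of the drug and of cyclin E1 induction cannot be told apart. The interaction of time with doxycycline was called for 1 gene (0.00981%), CCNE1 itself. Within doxycycline, adapted against acute cells gave 2 called genes (0.0196%), CCNE1 and CDKN1A, both lower, and 3 at 0.05 (0.0294%), all lower. Without doxycycline, recovery against control cells gave 2 (0.0196%), AC008440.2 and ANKRD1, both higher, and 17 at 0.05 (0.167%), of which 13 were higher (0.127%) and 4 lower (0.0392%). Over 10197 genes, the on and the off differences had a Pearson r of 0.42, given as a description since genes are not independent replicates. The r was 0.24 after a correction for GC content. Libraries also differed in their trend with the GC content of genes, although the early and late sides overlapped in it. Across genes, each library's departure from the 12-library average was correlated with GC content, and Spearman's rho was at least 0.57 in control 1, control 2 and acute 3. It was −0.07 in control 3, −0.40 in acute 1 and 0.10 in acute 2. In the 6 late libraries it ran from −0.53 to −0.12, and so the time effect itself followed GC content, with a rho of −0.69 over 10186 genes. A GC correction was therefore made by subtracting each library's loess curve against GC content, and the corrected value stands beside most of the genes named below. After that step 12 genes were called, 7 of them shared with the 13.

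**Figure D2:**
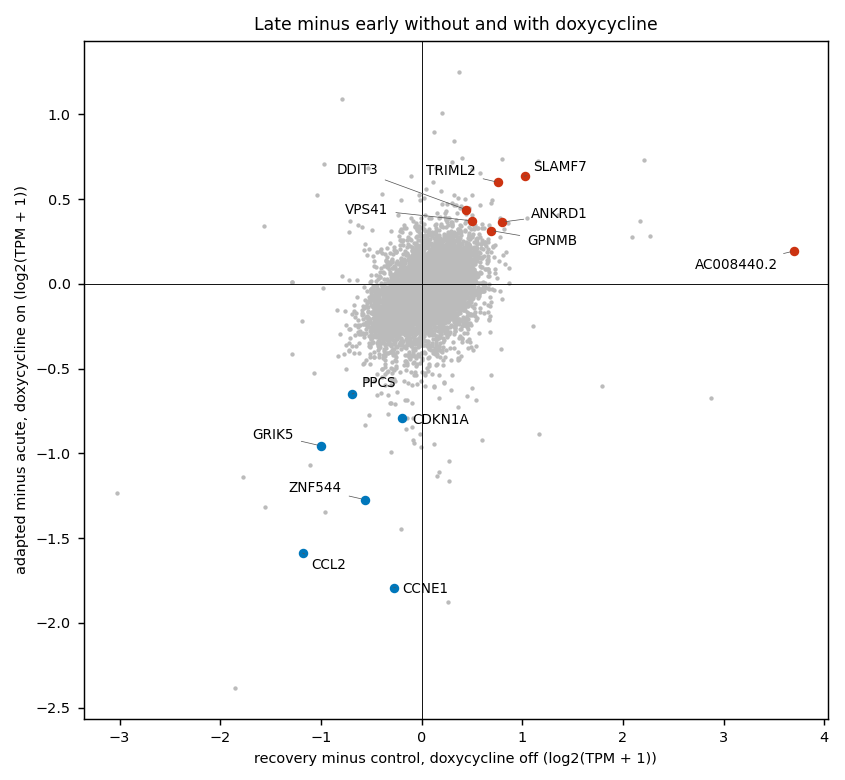
Difference of recovery from control cells (horizontal, doxycycline off) against that of adapted from acute cells (vertical, doxycycline on), both on the log2(TPM + 1) scale, for 10197 genes in grey. Red and blue points are the 7 genes called higher and the 6 called lower late. All 13 lie to the upper right or lower left of the origin, with CCNE1 far along the vertical axis and AC008440.2 far along the horizontal axis.

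The call at 0.01 rested on all 12 libraries. The 13 calls became 1 without control 1, control 2, acute 3 or adapted 2, and 2 without recovery 2. They became 3 without acute 1, acute 2, adapted 3 or recovery 1, 7 without adapted 1, 8 without control 3 and 10 without recovery 3. CCNE1 was called in all 12 of these fits, and CRYAB and CACNG7 were called in all 12 of the corresponding fits with the filter at 1 TPM. Each of the 16 genes kept its direction and had an adjusted p of at most 0.0316 in each fit, at its own filter, in which it could be tested. With control 1, control 2 and acute 3 left out together, 14 of the 16 could be fitted, all 14 kept their direction, and 1 of them, CCNE1, was called. Adjusted p ran up to 0.458 there, with a loss of 3 of the 6 early libraries.

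Among called genes at 5 TPM or more, the largest fitted fall on the log2(TPM + 1) scale was that of CCL2, which encodes a chemokine that draws monocytes and is a target of NF-kB. CCL2 (ENSG00000108691.9, chr17:34255274-34257208 of hg38, plus strand) was at 10.4 to 15.6 TPM in the early libraries (median 12.5). It was at 2.25 to 7.16 TPM in the late libraries (median 4.34). Every late library lay below every early one, and the lowest were adapted 1 and 2, at 2.32 and 2.25 TPM. The mean fell from 12.7 ± 2.09 TPM (SD, n = 6) to 4.56 ± 2.15 TPM (SD, n = 6), so that the early mean was 2.79 times the late one. On the log2 scale the time effect was −1.39 (SE 0.20, adjusted p = 0.00655 from limma) and −1.49 after the GC correction (adjusted p = 0.00809). The difference was −1.59 with doxycycline and −1.18 without it. The crisis libraries, at 7.67 to 8.43 TPM, lay below all early and above all late libraries.

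Other cytokine genes did not pass the test with CCL2. Over all tested genes, 5872 (57.6%) had a positive and 4325 (42.4%) a negative time effect. Of 10 tested NF-kB cytokines and chemokines, 9 had a negative time effect and 1 was called, with a median of −0.14 against 0.03 over all genes and −0.23 after the GC correction. The list median was −0.56 with doxycycline and 0.07 without it, against −0.02 and 0.08 over all tested genes. The negative median thus came from the libraries on doxycycline, where time and CCNE1 level cannot be told apart. The chemokine gene CXCL3 had −0.42 (SE 0.15, adjusted p = 0.124 from limma) and −0.41 after the GC correction, and its late range of 4.64 to 11.3 TPM overlapped its early range of 7.33 to 16.1 TPM. IL6 and CXCL8, an interleukin and a neutrophil chemokine named after their values were seen, had opposite signs on and off doxycycline. Their differences were −0.68 and −0.62 with doxycycline but 0.54 and 0.29 without it. Among 20 tested subunits and feedback genes of NF-kB, 16 had a negative effect, with a median of −0.14 and −0.08 after the GC correction. NFKBIA, the inhibitor that NF-kB induces to shut itself off, was at 33.8 to 40.8 TPM early (median 36.2) and 25.9 to 31.7 TPM late (median 28.3), without overlap. Its time effect was −0.35 (SE 0.07, adjusted p = 0.0282 from limma), which missed 0.01, and its adjusted p was 0.0552 after the GC correction. TNFAIP2, a gene that TNF induces, had −0.53 (SE 0.12, adjusted p = 0.0454 from limma), and its adjusted p was 0.177 after the GC correction.

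By the ratio of mean TPM, the steepest falls among the called genes were of genes below 5 TPM. CRYAB, which encodes the small heat shock protein alpha-B crystallin (chr11:111908564-111923722), was at 1.46 to 4.71 TPM in early libraries (median 3.13) and 0.24 to 0.69 TPM in late ones (median 0.49). CACNG7, an auxiliary subunit of AMPA glutamate receptors (chr19:53909278-53943950), was at 1.76 to 3.42 TPM (median 2.60) and 0.14 to 0.59 TPM (median 0.30). APBB1IP, an effector of RAP1 that links it to talin and integrins (chr10:26438341-26567803), was at 1.51 to 2.02 TPM (median 1.76) and 0.26 to 0.69 TPM (median 0.50). In none of the 3 did a late library reach the lowest early one. The ratio of mean TPM, early over late, was 7.62 for CACNG7, 6.31 for CRYAB and 3.62 for APBB1IP. On the log2(TPM + 1) scale, with the filter at 1 TPM, the time effect was −1.42 for CACNG7 (SE 0.15, adjusted p = 0.00105 from limma) and −1.40 for CRYAB (SE 0.14, adjusted p = 0.00105). It was −0.90 for APBB1IP (SE 0.11, adjusted p = 0.00726 from limma). After the GC correction the adjusted p was 0.00307, 0.00182 and 0.00448 for CACNG7, CRYAB and APBB1IP. In crisis, CACNG7 was at 0.40 to 1.06 TPM and APBB1IP at 0.53 to 0.59 TPM, below every early library, and CRYAB at 0.33 to 1.92 TPM reached the early range in crisis 3. Values this low rest on few reads, whose number is unknown. The call of APBB1IP held without adapted 1 or recovery 3 and was lost without any other of the 12 libraries (highest adjusted p = 0.0308 from limma).

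ZNF544, GRIK5 and PPCS also fell without overlap. ZNF544, a zinc finger gene (chr19:58228594-58277495), was at 5.63 to 9.51 TPM early (median 7.22) and 2.25 to 5.23 TPM late (median 3.37). The time effect was −0.92 for ZNF544 (SE 0.13, adjusted p = 0.00655 from limma), and it was −0.92 after the GC correction as well. The 3 crisis libraries, at 1.99 to 4.44 TPM, were already below every early one. GRIK5, a kainate receptor subunit (chr19:41998321-42070206), was at 11.97 to 16.4 TPM early (median 15.4) and 5.05 to 9.86 TPM late (median 6.25). Its time effect of −0.98 (SE 0.15, adjusted p = 0.00672 from limma) became −0.79 after the GC correction (adjusted p = 0.0332), which ends the call. Its GC content of 62.4% is that of the median gene lower late at 0.05. PPCS, an enzyme of coenzyme A synthesis (chr1:42456117-42473385), was at 15.6 to 20.3 TPM early (median 18.4) and 9.44 to 14.1 TPM late (median 10.7). The time effect was −0.67 for PPCS (SE 0.10, adjusted p = 0.00762 from limma) and −0.73 after the GC correction (adjusted p = 0.00732). GRIK5 overlaps ZNF574 on the other strand, and as the sources used here name no strand setting, their reads may not be separated.

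Among genes that rose, ANKRD1 was the most abundant of those called. ANKRD1 encodes a nuclear ankyrin repeat protein of muscle and of stretched or spread cells, induced by YAP with TEAD factors. The promoter of ANKRD1 is shown because this pathway acts there, with TEAD motifs in capitals (GGAATG on either strand), which 11.9% of 35116 promoters of this length hold. It covers the 250 bases before the start in RefSeq on GRCh38.p14, chr10:90921088-90921337 on the minus strand, and its 2 motifs begin 220 and 128 bases before the start.
ANKRD1: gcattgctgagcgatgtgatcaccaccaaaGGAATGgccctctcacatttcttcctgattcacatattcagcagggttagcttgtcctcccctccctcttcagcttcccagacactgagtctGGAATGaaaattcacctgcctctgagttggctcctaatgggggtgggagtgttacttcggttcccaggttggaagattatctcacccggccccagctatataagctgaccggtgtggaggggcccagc
A match of these letters is a description and not a measured site. ANKRD1 was at 268 to 324 TPM in the early libraries (median 303) and at 344 to 587 TPM in the late ones (median 454), without overlap. All 3 recovery libraries, at 483, 511 and 587 TPM, were above all 3 adapted ones, at 344, 374 and 425 TPM. The mean was 299 ± 24.6 TPM (SD, n = 6) early and 454 ± 90.8 TPM (SD, n = 6) late, a ratio of 1.52. The fitted time effect was 0.58 (SE 0.07, adjusted p = 0.00646 from limma) and 0.45 after the GC correction (adjusted p = 0.00776). The difference was 0.37 with doxycycline and 0.80 without it, and the interaction did not pass (−0.43, adjusted p = 0.632 from limma).

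ANKRD1 was the only YAP-TEAD target called. Of 24 tested, 14 had a positive time effect, with a median of 0.04 against 0.03 over all genes and 0.08 after the GC correction. VGLL3, a cofactor of TEAD, was at 7.78 to 10.1 TPM early (median 8.38) and 8.74 to 14.3 TPM late (median 12.6), with overlap. The time effect was 0.46 for VGLL3 (SE 0.10, adjusted p = 0.0358 from limma), past 0.05 and not 0.01, and 0.42 after the GC correction. Of 27 tested SRF targets and contractile genes, 19 had a positive effect, with a median of 0.05 and 0.14 after the GC correction. As deposited, that median was −0.03 with doxycycline and 0.11 without it, against −0.02 and 0.08 over all tested genes. TPM4, a tropomyosin of the actin cytoskeleton, was at 736 to 850 TPM early (median 810) and 859 to 1043 TPM late (median 933). The groups did not overlap, with a time effect of 0.23 (SE 0.05, adjusted p = 0.0405 from limma) and 0.17 after the GC correction.

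GPNMB, a transmembrane glycoprotein of melanosomes and lysosomes, and VPS41, a subunit of the HOPS complex that delivers cargo to lysosomes, both rose. The promoter of GPNMB is shown because MITF and its relatives TFEB and TFE3 act on the gene through E-boxes. Capitals mark CATGTG on either strand, held by 9.42% of the promoters. The 250 bases are chr7:23246525-23246774 on the plus strand, and the 2 motifs begin 123 and 62 bases before the start.
GPNMB: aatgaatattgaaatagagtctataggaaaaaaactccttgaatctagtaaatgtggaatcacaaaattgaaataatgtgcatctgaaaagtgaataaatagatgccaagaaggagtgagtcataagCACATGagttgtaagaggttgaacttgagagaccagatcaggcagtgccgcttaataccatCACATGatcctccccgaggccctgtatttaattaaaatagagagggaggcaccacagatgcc
GPNMB was at 91.2 to 116 TPM early (median 98.5) and 122 to 168 TPM late (median 149). The 3 recovery libraries and adapted 3 were the highest, between 149 and 168 TPM. Its time effect was 0.50 (SE 0.07, adjusted p = 0.00655 from limma) and 0.42 after the GC correction (adjusted p = 0.0202), which ends the call. VPS41 (chr7:38722974-38932394) was at 37.5 to 47.7 TPM early (median 44.4) and 52.5 to 62.8 TPM late (median 60.0). For VPS41 the time effect was 0.44 (SE 0.06, adjusted p = 0.00664 from limma) and 0.30 after the GC correction (adjusted p = 0.0358), which also ends the call. Leaving out any 1 of the 12 libraries ended the call of VPS41 as well (highest adjusted p = 0.0287 from limma). Of 31 tested lysosomal genes, 18 had a positive and 13 a negative time effect, with a median of 0.03, the same as over all genes. CTSZ, a lysosomal protease, had −0.45 (SE 0.10, adjusted p = 0.0402 from limma), the opposite sign, with an adjusted p of 0.115 after the GC correction. MITF itself was at 15.6 to 20.2 TPM early and 13.8 to 26.1 TPM late, with a time effect of 0.01 (SE 0.11, adjusted p = 0.974 from limma).

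DDIT3 encodes CHOP, a transcription factor of the integrated stress response that ATF4 induces. Its promoter is shown because AP-1 factors act on this gene under stress, with an AP-1 motif in capitals (TGANTCA, in 6.57% of the promoters), at chr12:57520515-57520764 on the minus strand, with the motif beginning 241 bases before the start.
DDIT3: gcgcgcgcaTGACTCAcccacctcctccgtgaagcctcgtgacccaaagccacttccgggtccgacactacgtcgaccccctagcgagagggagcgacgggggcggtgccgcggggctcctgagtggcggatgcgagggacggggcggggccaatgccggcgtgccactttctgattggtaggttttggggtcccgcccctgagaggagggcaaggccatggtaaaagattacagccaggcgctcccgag
DDIT3 was at 16.3 to 19.1 TPM early (median 17.3) and 23.2 to 25.0 TPM late (median 24.1). The early and late ranges were both narrow and lay apart. Even so, the call of DDIT3 was lost when any 1 of the 12 libraries was left out (highest adjusted p = 0.0287 from limma). The mean rose from 17.5 ± 0.99 TPM (SD, n = 6) to 24.1 ± 0.80 TPM (SD, n = 6). Its time effect was 0.44 (SE 0.06, adjusted p = 0.00655 from limma), with 0.44 on and 0.44 off doxycycline, and 0.42 after the GC correction (adjusted p = 0.00732). In crisis it was at 17.6, 26.8 and 25.1 TPM, within the early range in 1 library and above every late one in the other two. Of 22 tested genes of the ATF4 response, DDIT3 included, 5 had a positive and 17 a negative time effect, with a median of −0.09 and −0.05 after the GC correction. DDIT3 alone passed 0.05. SLC7A5, an amino acid transporter, had −0.24 (SE 0.07, adjusted p = 0.0859 from limma) and −0.10 after the GC correction. DDIT3 overlaps MARS, at a mean of 142 TPM, and MBD6 on the other strand.

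TRIML2 and SLAMF7 rose as well. TRIML2, a tripartite motif protein and a p53 target (chr4:188091272-188109603), was at 7.26 to 14.1 TPM early (median 11.1) and 14.9 to 21.05 TPM late (median 17.4). The late minimum, recovery 2 at 14.9 TPM, was close to the early maximum, acute 2 at 14.1 TPM. The fitted time effect was 0.68 (SE 0.09, adjusted p = 0.00655 from limma) and 0.64 after the GC correction (adjusted p = 0.00732). SLAMF7, a receptor of the SLAM family best known from lymphocytes (chr1:160739057-160754821), was at 6.29 to 9.92 TPM early (median 7.64) and 10.6 to 17.9 TPM late (median 14.8). The time effect was 0.83 for SLAMF7 (SE 0.12, adjusted p = 0.00655 from limma) and 0.76 after the GC correction (adjusted p = 0.0107), which ends the call.

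Most p53 targets did not follow TRIML2. Of 23 tested, 10 had a positive and 13 a negative time effect, with a median of −0.01 and −0.05 after the GC correction. The median was −0.21 with doxycycline and 0.23 without it, against −0.02 and 0.08 over all tested genes. At 0.05, 4 of the 23 were lower, beside 0.922% of all tested genes: CDKN1A, FDXR, PHLDA3 and AEN, the last named after its value was seen. FDXR, a mitochondrial reductase, had −0.51 (SE 0.09, adjusted p = 0.0157 from limma), and PHLDA3, an inhibitor of AKT, had −0.42 (SE 0.08, adjusted p = 0.0262). Their adjusted p rose with the GC correction to 0.119 and 0.137, and that of AEN from 0.0454 to 0.183. CDKN1A, the gene of the CDK inhibitor p21 (chr6:36676460-36687337), was at 70.5 to 163 TPM early (median 111) and 61.8 to 86.9 TPM late (median 80.6). The sides overlapped, since the early values came in a control set of 70.5 to 83.5 TPM and an acute set of 139 to 163 TPM. Its time effect of −0.50 (SE 0.07, adjusted p = 0.00672 from limma) was −0.79 with doxycycline and −0.20 without it (adjusted p = 0.221 from limma). The interaction of −0.59 did not pass (adjusted p = 0.519 from limma), and the GC correction ends the call for time (adjusted p = 0.0264).

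CCNE1, the induced gene, was lower late mainly through the libraries on doxycycline. CCNE1 (chr19:29811991-29824312) was at 6.27 to 163 TPM early and 5.49 to 43.3 TPM late, ranges that overlap because each holds induced and uninduced cells. Its time effect was −1.04 (SE 0.07, adjusted p = 3.53e-06 from limma), with −1.79 on and −0.28 off doxycycline, and −1.04 after the GC correction (adjusted p = 1.70e-05). The interaction was −1.51 (adjusted p = 2.46e-04 from limma). Transgene and endogenous mRNA share 1 entry. AC008440.2, a long noncoding RNA (chr19:53874626-53876049), had a time effect of 1.95 (SE 0.28, adjusted p = 0.00655 from limma), which became 1.83 after the GC correction (adjusted p = 0.0226), and this ends the call. It was listed at 0 in all 3 control libraries, at 2.67 to 11.7 TPM in acute libraries and at 4.59 to 14.5 TPM in late ones, so the late range overlapped the acute one. The effect came from libraries off doxycycline, with 3.70 there and 0.19 on doxycycline, and the interaction of −3.51 had an adjusted p of 0.0837 from limma. It lies antisense in MYADM, at a mean of 46.6 TPM, and without a stated strand setting their reads cannot be told apart.

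The larger set at an adjusted p under 0.05 followed GC content. The 48 genes higher late had a median GC content of 43.5% and the 94 lower late one of 62.4%, against 48.5% over all genes. After the GC correction 35 of 10186 genes (0.344%) were higher and 27 (0.265%) lower at 0.05. Under both fits 37 genes passed 0.05, 19 higher and 18 lower, and 24 of the 37 did not overlap. Those named next were chosen from the 37 after their values were seen. After the GC correction the 6 had time effects of 0.25 (TMSB4X), 0.27 (NEXN), 0.82 (SIK1), −0.37 (PLXNA4), −0.26 (GUK1) and −0.21 (CDK16). TMSB4X, which encodes the actin-binding peptide thymosin beta-4, was at 2495 to 3156 TPM early and 3235 to 3773 TPM late. NEXN, an actin-binding protein of the Z-disc, was at 26.8 to 34.2 TPM early and 35.2 to 48.1 TPM late. The salt-inducible kinase gene SIK1 had the largest rise of these after AC008440.2, SLAMF7 and the noncoding LINC00840, with 0.72 (SE 0.14, adjusted p = 0.0292 from limma). Its lowest late library, at 28.8 TPM, was just under its highest early one, at 29.0 TPM, and reads of SIK1 may be shared with its near-identical copy SIK1B. Among those lower, PLXNA4, a semaphorin receptor, was at 56.1 to 66.2 TPM early and 42.6 to 49.98 TPM late. GUK1, the guanylate kinase, was at 121 to 179 TPM early and 98.5 to 120 TPM late. CDK16, a cyclin Y-dependent kinase, was at 87.3 to 103 TPM early and 70.8 to 79.9 TPM late. None of these 3 overlapped.

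**Figure D3:**
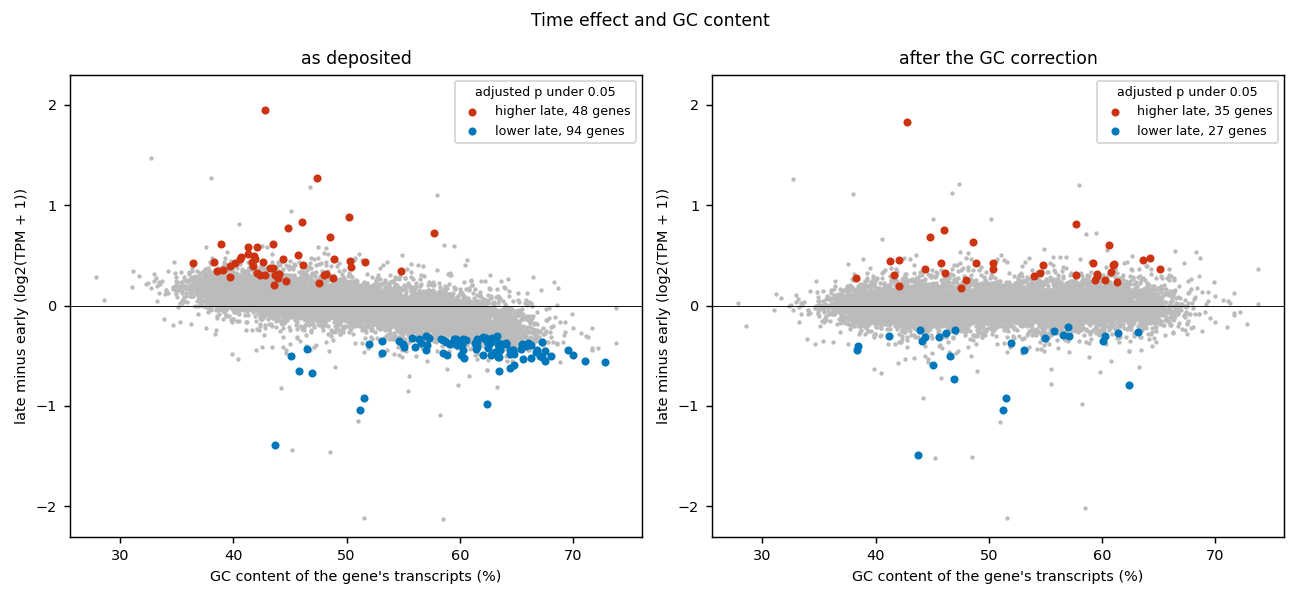
Time effect on the log2(TPM + 1) scale against the GC content of each gene's transcripts in percent, as deposited (left) and after the GC correction (right). Coloured points passed an adjusted p under 0.05, 48 higher and 94 lower on the left and 35 higher and 27 lower on the right. The slope of the grey cloud on the left, a rho of −0.69, is gone on the right.

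Gene lists by pathway had small medians, and most held no called gene. Of 28 tested genes of cholesterol and fatty acid synthesis, 21 were higher late and 0 were called at 0.01, with a median of 0.10 and 0.12 after the GC correction. MSMO1, a sterol oxidase, was at 37.2 to 42.1 TPM early and 42.4 to 55.3 TPM late, without overlap, with a time effect of 0.34 (SE 0.07, adjusted p = 0.0350 from limma). STARD4, a sterol carrier, had 0.47 (SE 0.10, adjusted p = 0.0393 from limma). After the GC correction the adjusted p was 0.227 for MSMO1 and 0.0587 for STARD4. Of 20 ER chaperones, 18 were higher, with a median of 0.07 in both fits and 0 called. Their median was −0.002 with doxycycline and 0.18 without it, against −0.02 and 0.08 over all tested genes. All 13 mRNAs of mitochondrial DNA had a positive time effect, with 0 called, a median of 0.17 and 0.07 after the GC correction, and −0.02 on against 0.35 off doxycycline. Their summed level overlapped, at 44017 to 62391 TPM early and 50902 to 71524 TPM late.

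Of 26 replication fork and S phase genes, 19 had a negative time effect, with a median of −0.04 and −0.09 after the GC correction. The median of this list was 0.03 with doxycycline and −0.09 without it, against −0.02 and 0.08 over all tested genes. Of 40 genes of G2 and mitosis, 22 had a negative time effect, with a median of −0.01 and −0.11 after the GC correction. The median of that list was −0.05 with doxycycline and 0.003 without it. Neither list held a call at 0.05. Both counts stand beside 42.4% negative over all tested genes and were not tested. Among 17 origin licensing genes, 10 had a negative effect and CDT1, the loader of the MCM helicase, was at 14.4 to 19.4 TPM early (median 16.2) and 7.79 to 13.8 TPM late (median 11.4), without overlap. Its time effect was −0.53 (SE 0.11, adjusted p = 0.0368 from limma) and −0.29 after the GC correction (adjusted p = 0.146). MXD3, a partner of MAX, had −0.62 (adjusted p = 0.0180 from limma) and −0.40 after the GC correction (adjusted p = 0.0665). Cytosolic ribosomal proteins were near balance, with 42 of 78 higher and a median of 0.01. Among interferon-stimulated genes 11 of 17 were higher, with a median of 0.15 and 0.10 after the GC correction. Their median was 0.04 with doxycycline and 0.26 without it. IFI44 passed 0.05 (0.62, SE 0.13, adjusted p = 0.0368 from limma) but not after the GC correction (adjusted p = 0.0734).

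**Figure D4:**
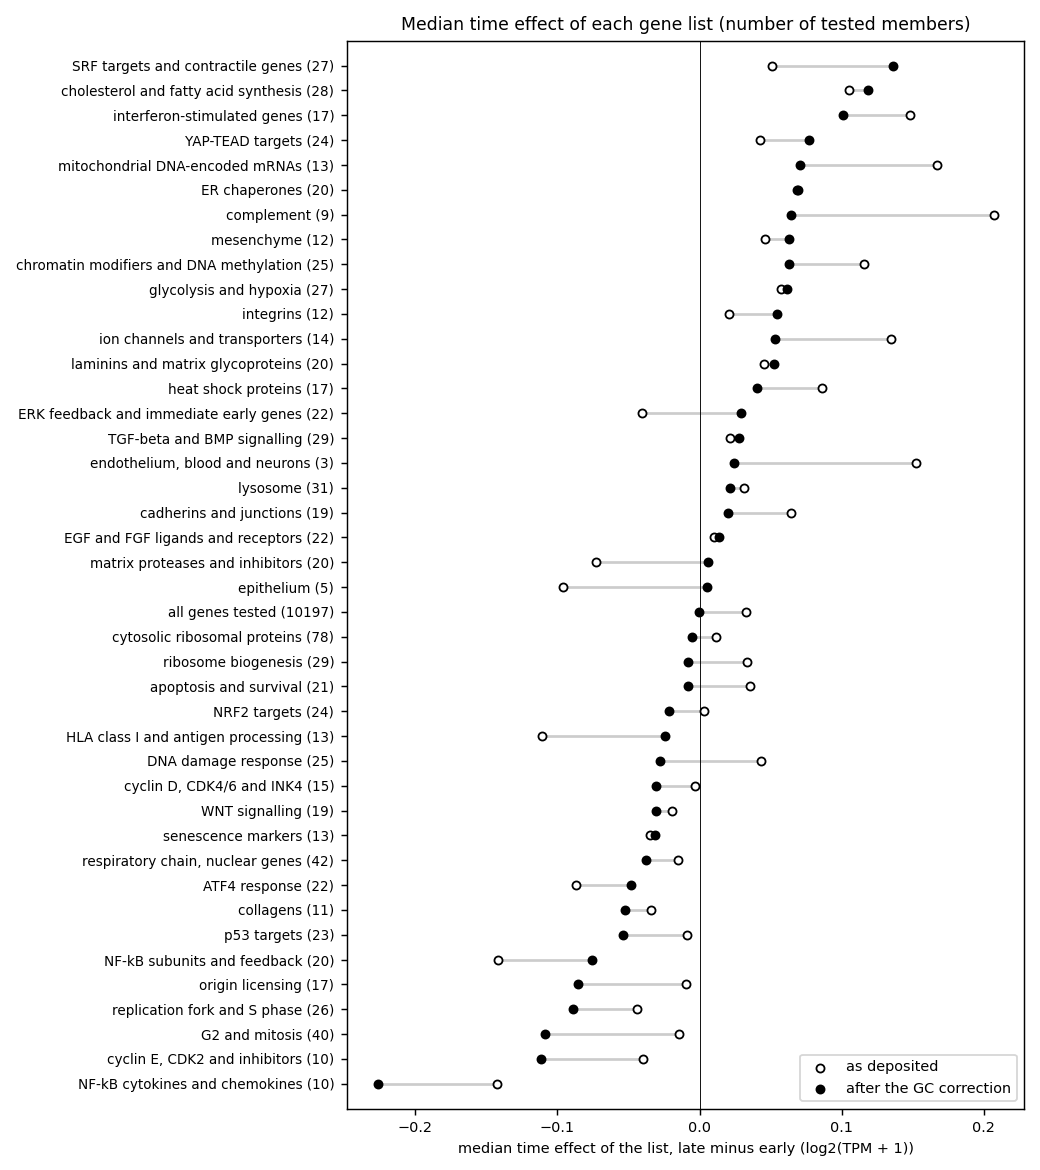
Median time effect of each gene list on the log2(TPM + 1) scale as deposited (open) and after the GC correction (filled), for lists with at least 3 tested members, whose number stands in brackets. NF-kB cytokines and chemokines lie lowest, at −0.14 and −0.23, SRF targets and contractile genes lie highest after the correction, at 0.14, and all genes tested lie at 0.03 and 0.00.

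By chromosome, medians as deposited followed GC content. Chromosome 19 was lowest, at −0.12, and chromosome 13 the highest autosome, at 0.11, and after the GC correction they stood at 0.01 and 0.00. Chromosome 12, chosen after its values were seen, was the only 1 of 24 chromosomes whose 6 late medians all lay above its 6 early medians, with the GC correction and without it. Its 598 tested genes had corrected medians of −0.03 to 0.00 in early libraries and 0.01 to 0.02 in late ones. The crisis libraries lay between −0.00 and 0.01. The difference of the means was 0.03 on the log2(TPM + 1) scale. At an adjusted p under 0.05, 3 of the 598 genes (0.502%) were higher late and 0 lower, near the 0.471% higher over all tested genes.

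**Figure D5:**
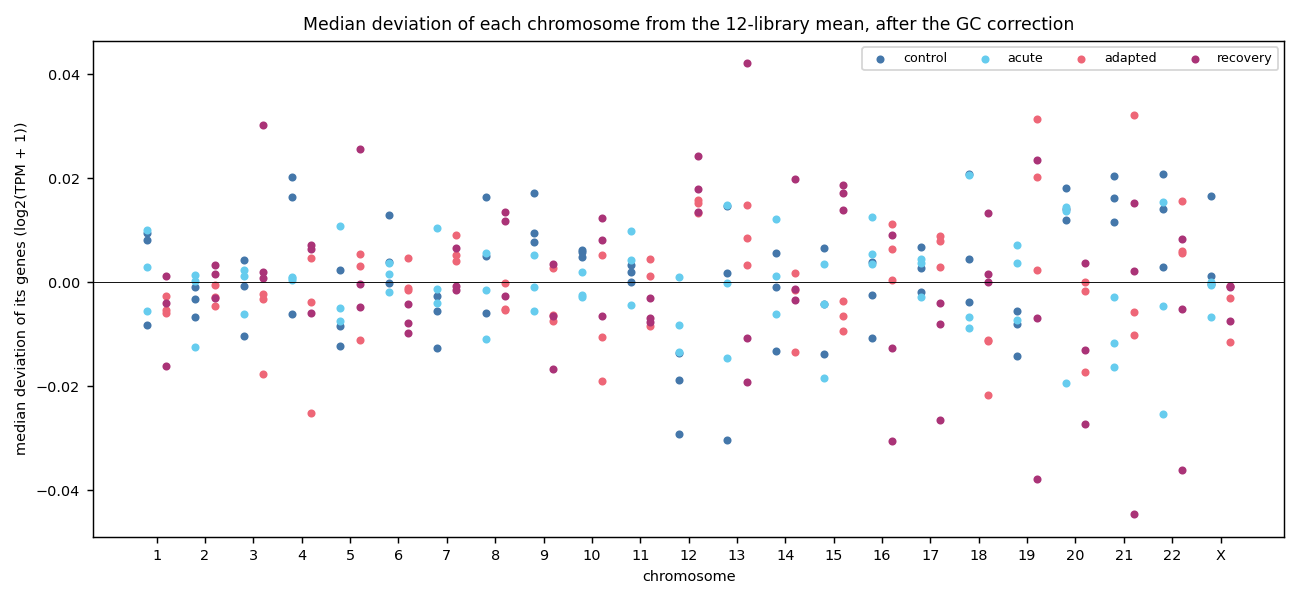
Median deviation of each chromosome's tested genes from their 12-library mean, after the GC correction, on the log2(TPM + 1) scale, with early libraries on the left and late libraries on the right of each position. Each point is a library, and the mitochondrial chromosome is left out. On chromosome 12 all 6 late points, at 0.01 to 0.02, lie above all 6 early ones, at −0.03 to 0.00.

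Crisis cells, outside the fit, were set beside these values. In 9 of the 13 called genes without overlap, all 3 crisis libraries lay outside the early range on the late side. These were CCL2, ZNF544, PPCS, APBB1IP, CACNG7, TRIML2, ANKRD1, GPNMB and SLAMF7. Among all 168 genes at 5 TPM or more without overlap, 33 (19.6%) had their crisis libraries so placed. The sets differ in their filter, since CACNG7 and APBB1IP, and CRYAB among the 13, lie below 5 TPM and outside the 168. Over all 10197 tested genes, 363 (3.56%) had all 3 crisis libraries outside the early range, on either side. The 13 genes were selected for a gap between early and late libraries, and the count of 9 was not tested. Of the 48 genes higher late at 0.05, the crisis mean was nearer the late than the early mean in 35 (72.9%), while among the 94 lower late it was so in 22 (23.4%). Over all tested genes the share was 42.3%. Crisis 1 and crisis 2 had a positive GC trend, with a rho of 0.46 and 0.62, as had 3 of the early libraries, and its part in these shares was not tested.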

How the data were processed

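RNA-seq of cultured cells was analysed. The deposited table holds TPM values that the authors obtained with Kallisto on hg38. The sources used here give neither the annotation release nor the strand setting. TPM keeps no depth, so counting error is unknown. The authors' own log2 fold changes and adjusted p-values in the table were not used. Genes (60603 entries, less 45 pseudoautosomal copies) averaging 5 TPM or more were fitted in limma 3.58.1 (R 4.3.3) on log2(TPM + 1), with time, doxycycline and their interaction over 12 libraries and an intensity trend in the variance. P-values were 2-sided and Benjamini-Hochberg adjusted over all 10197 genes, with calls at 0.01. Samples were grouped by the sample labels. Positions and GC content came from GENCODE 44, which 60261 entries matched and 297 did not, and the GC correction removed a loess (span 0.3) from each library. Promoters came from RefSeq on GRCh38.p14, which held 11 of the 16 called genes. The rule for named genes took CCNE1, up to 15 called genes in each direction without overlap, up to 5 by smallest p called for the interaction, up to 4 with the smallest p of each list, up to 5 in each direction called at 1 to 5 TPM without overlap, and up to 4 calls on each chromosome whose median lay over 0.1 from that of all genes. Exceptions are said in the text, and CDKN1A and AC008440.2, whose groups overlap, were included as calls after their values were seen. The members and lists were chosen with earlier results of these data known. On simulated data over 10197 genes, 75 of 100 genes shifted by 0.5 and 99 of 100 shifted by 1 (log2) were called in the time comparison, with 2 unchanged genes called. The simulated noise was independent between genes and held no GC trend, and adjusted p depends on how many genes are shifted. These rates therefore do not carry over directly to the real libraries. Alternatives covered the pseudocount, the filter, scaling, GC, threshold, design and each library. The GC correction at 0.05, the fit without control 1, control 2 and acute 3, and the ratio of mean TPM for genes under 5 TPM were added after the data were seen.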

Additional observations from a re-analysis of the deposited data

Results flagged for a closer look

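The effect of time differed between cells on and off doxycycline in 1 gene, CCNE1. Its adapted-minus-acute difference was −1.79 and its recovery-minus-control difference −0.28, and the interaction in limma was −1.51 on the log2(TPM + 1) scale (adjusted p = 2.46e-04). In 32 groups of 6 libraries tested for a library far from the others, 0 were found. The rule gives about 1 in 20 by chance for values from a single population. Each group here mixed libraries on and off doxycycline, of genes picked for their time effect. That rate therefore does not carry over, and the count of 0 does not show that no library stood apart.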

How the results depend on the processing

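The 13 genes called for time became 6 with a filter at 1 TPM, 31 without entries like 45S RNA (7 higher and 24 lower), 6 without an interaction term, 1 without a variance trend and 142 at 0.05, and 62 with the GC correction at 0.05. Without control 1, control 2 and acute 3 they became 2, and without 1 library at a time 1 to 10. The 5 genes called for doxycycline became 3 with a filter at 10 TPM, 8 with no filter, 10 at 0.05 and 31 with the GC correction at 0.05, and 2 to 8 without 1 library. The 1 called for the interaction became 2 with a pseudocount of 0.1, 6 with no filter and 0 without control 1, control 2 and acute 3, and 1 to 2 without 1 library. The 2 called on doxycycline became 4 with no filter and with the GC correction at 0.05. They became 1 with a pseudocount of 0.1, median-of-ratios scaling, no mitochondrial genes, the GC correction, no variance trend or without control 1, control 2 and acute 3, and 1 to 3 without 1 library. The 2 called off doxycycline became 0 with a pseudocount of 5 or the GC correction, and 1 with a filter at 1 or 10 TPM, median-of-ratios scaling or no variance trend. They became 17 at 0.05, 4 with 15 libraries and 5 with the GC correction at 0.05, and 0 to 5 without 1 library. Of same-numbered pairs, 8 of 18 correlated above 0.1, and 6 of 12 libraries matched their own number best. This check could not settle whether the numbers pair the samples, and the main fit did not use them. With the replicate block the counts were 10 for time, 6 for doxycycline, 1 for the interaction, 1 on and 3 off doxycycline, and with the block and the GC correction 7, 7, 1, 1 and 0. None of the 16 called genes changed sign in an alternative. With the GC correction the sign changed in 10 of 24 chromosome medians, 9 of 42 list medians and 5 of 175 other genes refitted, none of them called, and over all alternatives run in 13, 25 and 8. Chromosome 19 went from −0.12 to 0.01, and the list medians of DNA damage response from 0.04 to −0.03. With 3 libraries a group, a TPM unit without depth, a GC trend steepest in 3 early libraries and no late, never induced culture among the libraries used here, values close to the threshold are the least secure.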
